A study of Mus musculus with 28 samples.

Results

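The 8 genes followed here, Dcn, Bgn, Aspn, Lum, Prelp, Omd, Ogn and Podn, encode small leucine-rich proteoglycans, a family of secreted matrix proteins. They were chosen by symbol, each symbol matched 1 Ensembl gene, and all 8 were present among the 55416 genes of the count tables and passed the filter on low counts in each cohort. RNA-seq counts were available from tibialis anterior (TA) muscle of 28 mice at 8 weeks of age on the C57BL/6N background, in 7 groups of 4. The Dnm2 cohort held WT mice on placebo, WT mice on tamoxifen, Dnm2 S619L/+ mice on placebo and Dnm2 S619L/+ mice on tamoxifen. The Bin1 cohort held WT mice on placebo, Bin1 mck-/- mice on placebo and Bin1 mck-/- mice on tamoxifen, and no WT mice on tamoxifen. Dnm2 S619L/+ mice carry 1 copy of a point mutation of dynamin 2 in every cell, and Bin1 mck-/- mice carry a muscle-specific deletion of Bin1, which encodes amphiphysin 2, driven by the muscle creatine kinase promoter. Both serve as models of centronuclear myopathy. Tamoxifen, a drug that binds the oestrogen receptor, was given with the diet, and its dose and the sex of the mice are not given in the sources used here. The comparisons ask how the proteoglycan genes differ between disease and WT muscle and between tamoxifen and placebo.

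Small leucine-rich proteoglycans consist of a curved core of leucine-rich repeats that binds collagen, and most members carry chains of chondroitin, dermatan or keratan sulfate. They set the width and spacing of collagen fibrils, and several bind growth factors of the TGF-beta family or receptors on nearby cells. Decorin (Dcn), biglycan (Bgn) and asporin (Aspn) form class I, lumican (Lum), prolargin (Prelp) and osteomodulin (Omd) belong to class II, osteoglycin (Ogn) to class III, and podocan (Podn) to a more distant class. In muscle they are made mostly by the connective tissue around the fibres, and osteomodulin is best known from bone.

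Gene counts summed to 15586333 to 109710886 reads a mouse in the Dnm2 cohort and to 24671835 to 35136327 in the Bin1 cohort, and single proteoglycan genes had between 3 and 39324 reads. The lowest counts were those of Omd in the Bin1 cohort. The Dnm2 cohort used 300 ng of RNA a library and fragmented it for 2 min, the Bin1 cohort used 350 ng and 8 min, so that levels were compared within a cohort. The 10 muscle fibre markers summed to 106817 to 232973 CPM (counts of a gene scaled to library size) in every mouse, so the markers of the labelled tissue were present throughout. Bin1 fell in Bin1 mck-/- mice, from 539.9 ± 15.7 CPM in WT (SD, n = 4) to 56.2 ± 5.10, and the Dnm2 point mutation cannot be seen in counts per gene. A pair of tamoxifen-treated disease mice stood apart from their groups, mouse 4 of the Dnm2 S619L/+ group and mouse 2 of the Bin1 mck-/- group, and results that rest on them are given with and without them. In these bulk samples, more cells of a type and more RNA per cell cannot be told apart.

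In untreated WT muscle, decorin led the 8 genes. Levels between genes were compared as CPM per kb of exon length, which pools the annotated exons of all transcripts of a gene. In the Dnm2 cohort Dcn had 49.5 ± 6.37 CPM per kb (SD, n = 4), well above Bgn with 18.4 ± 4.13. Lum followed with 16.4 ± 1.18 CPM per kb, Aspn with 14.6 ± 2.96, Ogn with 12.1 ± 1.64 and Prelp with 9.59 ± 2.47. From Bgn to Prelp, each gene's range over the 4 mice overlapped that of its neighbour in this order. Podn, with 4.40 ± 0.563 CPM per kb, and Omd, with 0.407 ± 0.118, lay apart below them. In WT mice of the Bin1 cohort, Dcn (26.7 ± 2.39 CPM per kb), Bgn (16.4 ± 3.23) and Lum (10.7 ± 1.28) again came first and Podn (3.08 ± 0.391) and Omd (0.120 ± 0.0660) last. Here only the ranges of Aspn (4.61 ± 1.06 CPM per kb) and Ogn (4.40 ± 0.476) overlapped among neighbours.

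Tamoxifen raised most of the family in WT muscle. Of the 8 genes, 7 were higher on tamoxifen and passed the test, and 0 were lower and passed it, where 27.7% of all genes tested were differentially expressed (15.8% higher and 11.9% lower). The median log2 fold change of the 8 genes was 2.27, against −0.04 over all genes. Placebo and tamoxifen mice did not overlap for any of the 8, with 7 genes above and Podn below, where 31.4% of all genes did not overlap (17.6% higher and 13.8% lower). Log2 fold changes and their adjusted p-values come from edgeR's quasi-likelihood test with Benjamini-Hochberg adjustment over all genes of the cohort.

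Among the class I genes, asporin changed most. Aspn, which binds collagen without a sulfated sugar chain, had 33.3, 30.7, 29.1 and 44.6 CPM in the 4 WT mice on placebo and 491, 443, 289 and 339 in the 4 on tamoxifen. Every treated mouse was thus several times above the highest untreated mouse, and the log2 fold change was 3.50 (SE 0.45, edgeR adjusted p = 2.53e-04). Bgn, whose free form is known to bind the receptors Tlr2 and Tlr4, had 137, 94.3, 87.0 and 131 CPM on placebo and 592, 794, 406 and 521 on tamoxifen. The groups lay far apart here as well (log2 fold change 2.36, SE 0.36, edgeR adjusted p = 5.10e-04). Dcn, which coats collagen fibrils and binds TGF-beta, had 297, 292, 327 and 238 CPM on placebo and 753, 711, 548 and 538 on tamoxifen. This was the smallest change of class I (1.14 on the log2 scale, SE 0.25, edgeR adjusted p = 0.00427).

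Of the class II genes, osteomodulin and lumican had the largest changes of the 8 genes. Omd rose from 0.882, 0.623, 1.26 and 0.893 CPM on placebo to 40.4, 27.9, 14.9 and 24.9 on tamoxifen, and the log2 fold change was 4.86 (SE 0.63, edgeR adjusted p = 2.57e-04). Lum, which carries keratan sulfate and keeps collagen fibrils thin and evenly spaced, rose from 41.8, 43.2, 36.5 and 39.6 CPM to 791, 754, 473 and 605. This gene was already abundant, and its log2 fold change was 4.02 (SE 0.51, edgeR adjusted p = 2.50e-04). Prelp, which ties basement membranes to the collagen beneath, rose less. It had 38.7, 28.6, 26.1 and 45.3 CPM on placebo and 69.4, 89.2, 59.6 and 75.3 on tamoxifen (log2 fold change 1.08, SE 0.32, edgeR adjusted p = 0.0214). This call was lost without WT placebo mouse 2 or 3 or WT tamoxifen mouse 2 (adjusted p up to 0.0678), and with no filter on low counts (0.0717).

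Ogn, the class III member, had 35.7, 27.7, 33.4 and 27.3 CPM on placebo and 178, 153, 112 and 116 on tamoxifen (log2 fold change 2.17, SE 0.34, edgeR adjusted p = 6.16e-04). Podn was the 1 gene of the family whose treated mice lay below the untreated ones, with 14.1, 12.3, 12.9 and 13.4 CPM on tamoxifen and 19.6, 20.3, 20.002 and 15.2 on placebo. Podn, at −0.51 on the log2 scale (SE 0.25, edgeR adjusted p = 0.142), stayed short of the threshold. It passed when only the WT groups were fitted (−0.48, adjusted p = 0.0113) and in the fit without Dnm2 S619L/+ placebo mouse 4.

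**Figure D1:**
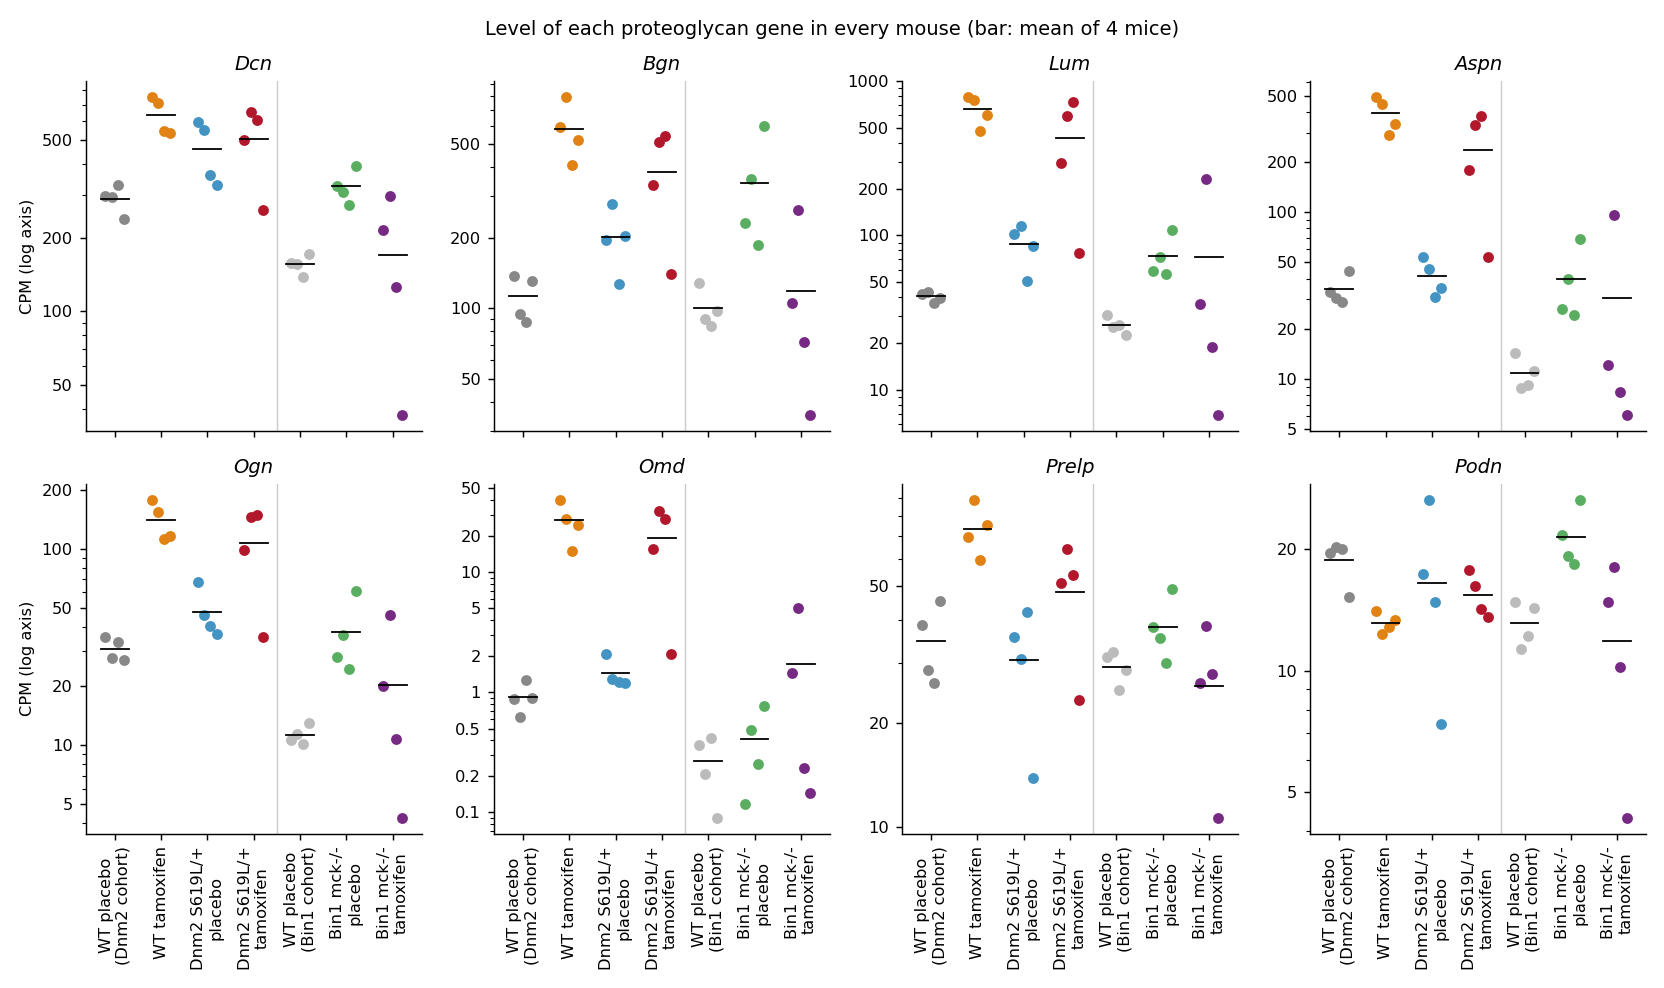
CPM of each of the 8 genes (log axis, 1 panel a gene) in every mouse of the 7 groups, with 1 point a mouse and a bar at the mean of 4 mice, and a grey line between the Dnm2 cohort (left) and the Bin1 cohort (right). Lum goes from 36.5 to 43.2 CPM in WT mice on placebo to 473 to 791 on tamoxifen, and mouse 4 of the Dnm2 S619L/+ tamoxifen group (76.5 CPM) lies with the untreated mice.

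Aspn, Omd and Ogn lie next to each other in the same orientation on chromosome 13, with Ecm2, another member of the family, as the next gene, and Dcn and Lum neighbour each other on chromosome 10. Since the 3 neighbours on chromosome 13 rose together in WT mice on tamoxifen, the 250 bases before each start site are shown (RefSeq, GRCm38.p6, plus strand, 5′ to 3′). They lie at chr13:49544193-49544442 for Aspn, chr13:49582212-49582461 for Omd and chr13:49607765-49608014 for Ogn. Capitals mark matches to any of the motifs searched.
Aspn: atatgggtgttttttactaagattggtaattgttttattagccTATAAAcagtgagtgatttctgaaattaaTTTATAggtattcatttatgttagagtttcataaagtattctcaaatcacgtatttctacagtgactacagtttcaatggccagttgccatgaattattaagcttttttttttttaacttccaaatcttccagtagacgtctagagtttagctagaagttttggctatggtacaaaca
Omd: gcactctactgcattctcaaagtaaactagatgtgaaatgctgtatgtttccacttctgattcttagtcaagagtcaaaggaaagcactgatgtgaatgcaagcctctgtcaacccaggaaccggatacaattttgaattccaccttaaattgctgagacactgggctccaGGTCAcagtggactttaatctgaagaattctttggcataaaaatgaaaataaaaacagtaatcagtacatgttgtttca
Ogn: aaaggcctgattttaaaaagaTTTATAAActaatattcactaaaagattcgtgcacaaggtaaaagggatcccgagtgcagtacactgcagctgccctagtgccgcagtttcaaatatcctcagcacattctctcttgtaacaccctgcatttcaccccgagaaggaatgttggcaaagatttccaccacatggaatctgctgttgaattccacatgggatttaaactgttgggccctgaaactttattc
The motifs searched, on both strands, were the palindromic oestrogen response element (GGTCANNNTGACC), 1 arm of it (GGTCA), the AP-1 site (TGANTCA), the SMAD box (CAGAC) and the TATA box (TATAAA), and the palindrome holds this arm on each strand. Capitals in Omd mark 1 such arm, 79 to 75 bases before the start. Those in Aspn mark TATA box letters, 207 to 202 and 178 to 173 bases before the start. In Ogn such letters lie 229 to 224 and 227 to 222 bases before the start and overlap each other on opposite strands. RefSeq's table held 7 promoters of 6 of the 8 genes, without Dcn and Lum. Of these 7, 3 contained the arm (42.9%, against 35.2% of 32851 promoters), 2 a TATA box (28.6% against 12.4%), 1 a SMAD box (14.3% against 42.2%), and 0 an AP-1 site (6.75% of all promoters) or the palindrome (0.0639%). These matches are a description of the letters in these windows.

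The make-up of the 8 genes changed along with their level. Fmod, another gene of the family, is outside this sum and had 611 CPM in WT mice on tamoxifen. The 8 genes summed to 538 to 604 CPM in WT mice on placebo and to 1915 to 2986 CPM in WT mice on tamoxifen. Dcn made up 51.5% ± 6.26 of this sum on placebo (SD, n = 4) and 25.6% ± 2.21 on tamoxifen, although its own level rose. Lum went from 7.19% ± 0.646 to 26.0% ± 1.22 and Aspn from 6.16% ± 1.40 to 15.5% ± 0.867, while Bgn stayed at about the same share (19.96% ± 4.09 and 22.8% ± 2.83). Ogn held 5.52% ± 0.491 and 5.56% ± 0.474. Per kb of exon, Lum (268 ± 59.7 CPM per kb) and Aspn (166 ± 39.3) then stood above Dcn (109 ± 18.9). The ranges of Lum and Aspn and of Aspn and Dcn overlapped. In CPM alone, Lum (656) and Dcn (638) were close and Aspn (391) was lower. The order per kb thus depends on the pooled exon lengths, 5.84 kb for Dcn, 2.45 kb for Lum and 2.35 kb for Aspn.

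**Figure D2:**
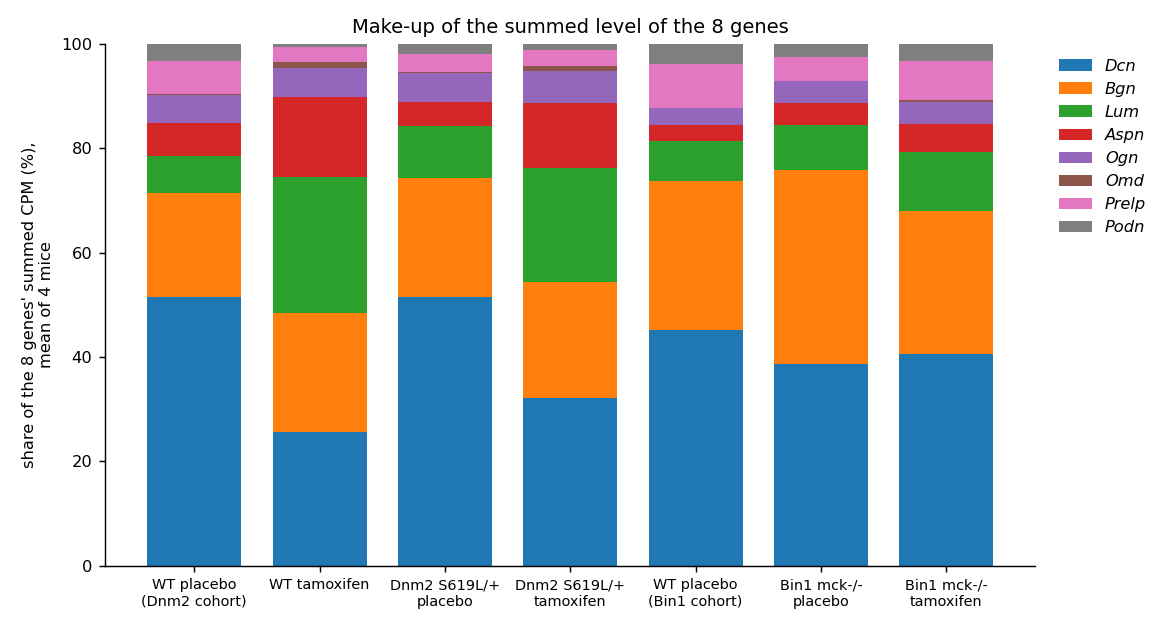
Mean share of each gene in the summed CPM of the 8 genes (y axis, percent, mean of 4 mice) in each of the 7 groups (x axis). Dcn takes 51.5% in WT mice on placebo and 25.6% in WT mice on tamoxifen, and Lum 7.19% and 26.0%.

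In Dnm2 S619L/+ mice, tamoxifen raised 4 of the 8 genes (Omd, Aspn, Lum and Ogn) and lowered 0, where 8.27% of all genes were called, 5.22% higher and 3.05% lower. The median log2 fold change was 1.04, against −0.03 over all genes. Only Omd had groups that did not overlap, by a narrow margin, where 10.4% of all genes did not (4.02% higher). Omd had 2.07, 1.30, 1.22 and 1.19 CPM in the mice on placebo and 15.6, 32.1, 27.7 and 2.10 in those on tamoxifen (log2 fold change 3.66, SE 0.60, edgeR adjusted p = 0.00339). Aspn had 54.2, 45.5, 31.0 and 35.2 CPM on placebo and 179, 332, 379 and 53.9 on tamoxifen (log2 fold change 2.50, SE 0.43, edgeR adjusted p = 0.00436). Mouse 4 was the low value in both genes, and it lay within the placebo range for Aspn. Lum had 103, 115, 50.5 and 85.3 CPM on placebo and 294, 598, 736 and 76.5 on tamoxifen (log2 fold change 2.27, SE 0.47, edgeR adjusted p = 0.0115). Ogn, with 68.1, 45.9, 40.5 and 36.8 CPM on placebo and 98.8, 145, 149 and 35.7 on tamoxifen, was just past the threshold (log2 fold change 1.16, SE 0.33, edgeR adjusted p = 0.0449). Its call was lost in 14 of 16 refits without a single mouse (adjusted p as high as 0.156) and with no filter on low counts (0.137).

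The other 4 genes did not pass the test in Dnm2 S619L/+ mice. Log2 fold changes were 0.93 for Bgn (SE 0.35, edgeR adjusted p = 0.113), 0.66 for Prelp (SE 0.32, adjusted p = 0.210), 0.14 for Dcn (SE 0.25, adjusted p = 0.784) and −0.10 for Podn (SE 0.25, adjusted p = 0.852). Dcn ran from 328 to 597 CPM on placebo and from 259.7 to 652 on tamoxifen, so the ranges covered each other almost entirely. Podn turned to 0.02 when scaled by library size alone. Without tamoxifen mouse 4, 6 of the 8 genes passed, where 16.4% of all genes did, with Bgn (1.20, adjusted p = 0.00711) and Prelp (0.88, adjusted p = 0.0451) added, and Lum reached 2.62 (adjusted p = 3.80e-05). That fit is no separate support for a rise, since mouse 4 had the lowest level of its group for each of the 8 genes. When only the mice of these 2 groups were fitted, 0 passed, where 0.21% of all genes did, with adjusted p from 0.0704 to 0.165 for the 4 genes and log2 fold changes of 1.21 to 3.70.

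The difference between the tamoxifen effects in Dnm2 S619L/+ and WT mice was tested as an interaction, which 0 of the 8 genes passed, where 0.259% of all genes did (0.0324% with a positive and 0.227% with a negative interaction). By DESeq2 0 passed too, and 4 had an unadjusted p under 0.05 by edgeR (Bgn, Dcn, Lum and Ogn). The interaction was negative for 7 genes, from −1.75 for Lum (SE 0.65, edgeR adjusted p = 0.277) to −0.42 for Prelp, and positive for Podn (0.41). A direct comparison of Dnm2 S619L/+ with WT mice, both on tamoxifen, called 0 of the 8 genes by edgeR and by DESeq2, with 0 at an unadjusted p under 0.05, where 2.7% of all genes were called (2.18% higher and 0.518% lower). These log2 fold changes lay between −0.73 (Aspn, SE 0.41) and 0.23 (Podn, SE 0.25). The SEs of these differences ran from 0.25 to 0.51, so their size is only loosely bounded. Without tamoxifen mouse 4, 0 passed again, where 2.22% of all genes were called, and the values lay between −0.40 (Aspn, SE 0.26) and 0.29 (Podn, SE 0.27). In that fit the interaction was −1.40 for Lum (edgeR adjusted p = 0.188), and 0 genes of the family passed it, where 0.223% of all genes did.

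Against WT mice on placebo, treated Dnm2 S619L/+ mice had 6 of the 8 genes higher and past the test and 0 lower, where 28.9% of all genes were called (15.8% higher). These were Omd (log2 fold change 4.37), Lum (3.40), Aspn (2.77), Ogn (1.79), Bgn (1.77) and Dcn (0.81, SE 0.25, edgeR adjusted p = 0.0259). Prelp (0.47, adjusted p = 0.281) and Podn (−0.28, adjusted p = 0.423) did not pass. Omd, Lum, Aspn and Bgn did not overlap between these groups, where 26.1% of all genes did not (12.7% higher). Without treated mouse 4 the 6 genes passed again, where 35.1% of all genes were called, with Omd at 4.76 and Dcn at 1.02 (edgeR adjusted p = 0.00120). Dcn lost its call without any of 5 single mice (adjusted p up to 0.0874) and with no filter on low counts (0.0642). This comparison shares its WT mice with those of tamoxifen in WT mice and of untreated disease.

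Without tamoxifen, Dnm2 S619L/+ muscle had 0 of the 8 genes called by edgeR, where 21.9% of all genes were called. DESeq2 called 2 (Dcn and Lum), and 3 had an unadjusted p under 0.05 by edgeR (Dcn, Lum and Bgn). Lum had the largest difference, with 103, 115, 50.5 and 85.3 CPM in disease against 41.8, 43.2, 36.5 and 39.6 in WT mice, and the groups did not overlap (log2 fold change 1.13, SE 0.46, edgeR adjusted p = 0.0904). Dcn had 597, 552, 361 and 328 CPM in disease against 297, 292, 327 and 238 in WT mice (0.67 on the log2 scale, SE 0.25, edgeR adjusted p = 0.0674), with the lowest disease mouse just above the highest WT mouse. Ogn also did not overlap (0.63, SE 0.33, edgeR adjusted p = 0.187), so that 3 of the 8 genes did not, where 24.9% of all genes did not. The remaining log2 fold changes were 0.84 for Bgn, 0.72 for Omd, 0.27 for Aspn, −0.18 for Podn and −0.19 for Prelp, the last 2 turning to 0.07 and 0.05 when scaled by library size alone. The count was not stable, and 4 genes passed (Bgn, Dcn, Lum and Ogn) when only these groups were fitted or when treated mouse 4, a mouse outside the comparison, was left out. Of all genes 20.2% were called in the former fit and 25.2% in the latter.

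In Bin1 mck-/- muscle on placebo, all 8 genes had higher means than in WT, and 0 passed the edgeR test, where 2.61% of all genes were called (1.99% higher). DESeq2 called 2 (Bgn and Ogn), and 4 had an unadjusted p under 0.05 by edgeR. For 6 genes the groups did not overlap, with disease above WT, where 9.09% of all genes did so. The median log2 fold change was 1.27, against 0.01 over all genes. Bgn had 231, 356, 186 and 599 CPM in disease against 128, 89.7, 84.3 and 97.5 in WT mice (1.78 on the log2 scale, SE 0.58, edgeR adjusted p = 0.131). Ogn had 28.2, 36.5, 24.4 and 60.9 CPM against 10.7, 11.4, 10.1 and 13.0 (1.73, SE 0.61, adjusted p = 0.151). Disease mouse 4 was the highest for each of the 8 genes. Dcn had 327, 308, 271 and 394 CPM in disease against 158, 156, 138 and 172 in WT (1.06, SE 0.47, edgeR adjusted p = 0.238). Aspn (1.86, SE 0.86), Lum (1.49, SE 0.89) and Podn (0.70, SE 0.32) were the others whose groups did not overlap, and Prelp (0.38) and Omd (0.50) overlapped. When the treated mice were left out of the fit, the 6 genes passed (edgeR adjusted p from 4.74e-04 for Dcn to 0.0340 for Bgn), where 10.1% of all genes did. Without treated mouse 2 alone Aspn and Bgn passed, where 5.03% of all genes did, and without treated mouse 4 alone Dcn (edgeR adjusted p = 0.0196) and Podn (0.0340) did, where 4.11% did.

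Tamoxifen in Bin1 mck-/- mice changed 0 of the 8 genes past the test by edgeR, where 3.13% of all genes were called (1.52% higher and 1.61% lower), and 0 by DESeq2. At an unadjusted p under 0.05 there were 3, Podn and Bgn lower and Omd higher. The treated mice were spread widely. For Lum they had 35.8, 231, 19.0 and 6.83 CPM, against 58.5, 72.7, 56.4 and 108 on placebo, so that mouse 2 lay above and the other 3 below every placebo mouse (log2 fold change −0.02, SE 0.87, edgeR adjusted p = 0.995). Aspn had the same order, with 12.2, 95.8, 8.34 and 6.07 CPM against 26.2, 39.6, 24.1 and 68.8 (−0.37, SE 0.83, edgeR adjusted p = 0.838). For Dcn the treated mice had 216, 297, 126 and 37.6 CPM, against 271 to 394 on placebo, and mouse 4 was the lowest for all 8 genes. Bgn had 105, 261, 71.4 and 35.0 CPM against 186 to 599 (−1.53, SE 0.58, edgeR adjusted p = 0.174). Podn was the 1 gene whose groups did not overlap, where 9.8% of all genes did not, with 14.8, 18.1, 10.2 and 4.31 CPM on tamoxifen and 21.7, 19.2, 18.4 and 26.6 on placebo (−0.85, SE 0.32, edgeR adjusted p = 0.159). Omd was the 1 gene with a higher mean, with 1.44, 5.07, 0.233 and 0.146 CPM on tamoxifen and 0.118, 0.483, 0.253 and 0.772 on placebo (1.93, SE 0.86, edgeR adjusted p = 0.229). Without mouse 2 its log2 fold change was 0.48.

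The comparison depended on single mice. The fit without mouse 2 is no separate support for a fall, since this mouse was flagged by its levels of Lum and Aspn. Without it, where 8.3% of all genes were called, 4 of the 8 genes were lower on tamoxifen and passed, Aspn (−2.16, SE 0.40, edgeR adjusted p = 0.0150), Bgn (−2.28, SE 0.48, adjusted p = 0.0252), Podn (−1.14, SE 0.31, adjusted p = 0.0439) and Lum (−1.85, SE 0.48, adjusted p = 0.0468). Without mouse 4 instead, 0 passed, where 1.66% of all genes did, and Lum turned to 0.36. Against WT mice, treated Bin1 mck-/- mice had 0 genes called by edgeR and by DESeq2, with 1 at an unadjusted p under 0.05 (Omd, 2.43, SE 0.88, edgeR adjusted p = 0.232), where 0.849% of all genes were called. Log2 fold changes were 0.12 for Dcn (SE 0.46), 0.24 for Bgn (SE 0.57), −0.18 for Prelp (SE 0.30) and −0.15 for Podn (SE 0.32). Treated mice lay on both sides of WT, from 37.6 to 297 CPM against 138 to 172 for Dcn and from 35.0 to 261 against 84.3 to 128 for Bgn. Lum (1.48, SE 0.89) and Aspn (1.4955, SE 0.85) owed their means to mouse 2, without which they were −0.37 and −0.30. Omd also depended on this mouse, and fell from 2.43 to 0.98 without it.

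**Figure D3:**
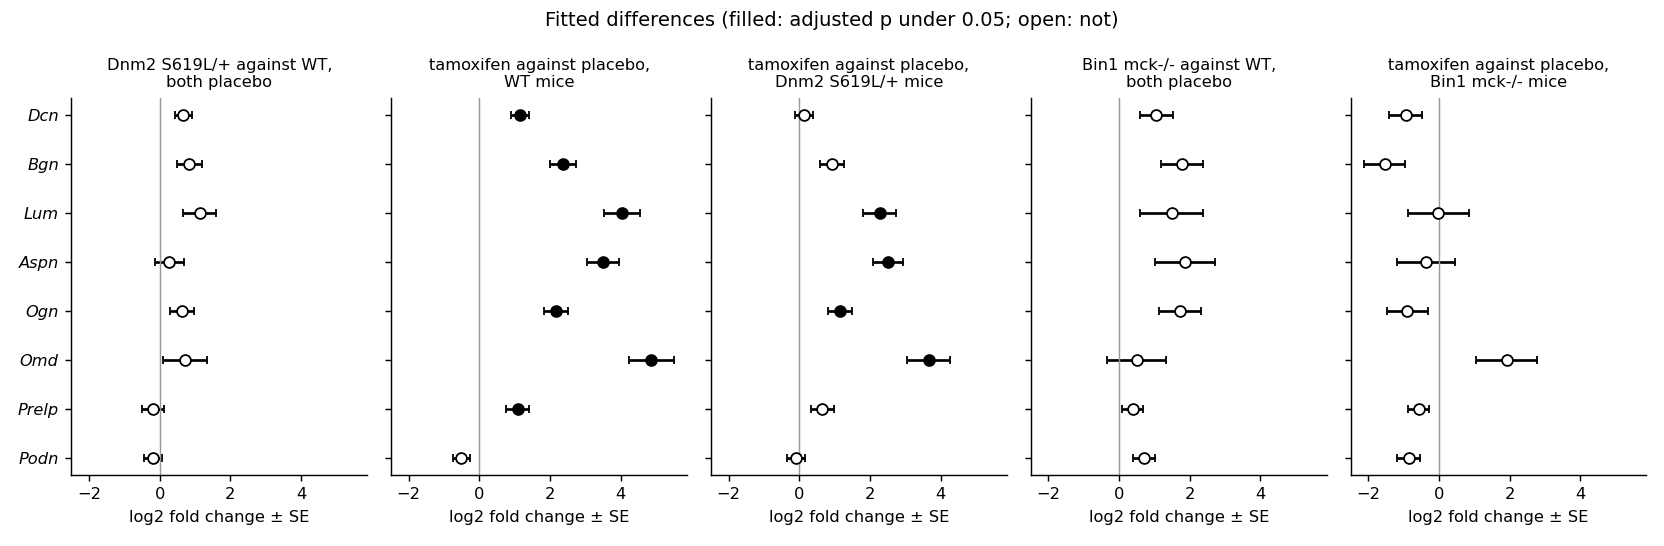
Log2 fold change (x axis) with its SE (bars) for each of the 8 genes (y axis) in 5 comparisons, filled where the edgeR adjusted p was under 0.05. Tamoxifen has 7 filled points in WT mice, 4 in Dnm2 S619L/+ mice and 0 in Bin1 mck-/- mice, where only Omd lies to the right of 0.

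The disease models were set against each other in 1 fit of all 28 mice. For the effect of tamoxifen on disease mice, the difference between the Dnm2 and the Bin1 model was positive for all 8 genes (median 1.93), and 0 passed the test by edgeR, where 1.71% of all genes did (1.05% with a positive difference). DESeq2 called 3 (Aspn, Bgn and Ogn), and 6 had an unadjusted p under 0.05 by edgeR. Bgn came closest, with a difference of 2.51 (SE 0.66, edgeR adjusted p = 0.0510), followed by Aspn with 2.93 (SE 0.91, adjusted p = 0.0681) and Ogn with 2.10 (SE 0.67, adjusted p = 0.0724). Without Bin1 mck-/- tamoxifen mouse 2, all but Podn passed (adjusted p = 7.07e-04 for Aspn), where 13.5% of all genes did, and without Dnm2 S619L/+ tamoxifen mouse 4 Aspn, Bgn, Ogn and Prelp did, where 11.2% did. These fits are no separate support for a difference between the models. The former mouse was the highest and the latter the lowest of its group for all 8 genes, so leaving out either widens the difference. For the effect of disease on placebo, 0 of the 8 genes differed between the models by edgeR or DESeq2, where 0.312% of all genes did (0.168% lower), and 1 had an unadjusted p under 0.05 (Podn, −0.90, SE 0.41, edgeR adjusted p = 0.335). The cohorts also differ in library protocol, which cannot be told apart from the model in these differences.

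Genes of bone, tendon and macrophages rose with the proteoglycans in WT mice on tamoxifen, and their part in the results was not tested. Of all genes, 15.8% rose in that comparison. The 12 markers of osteoblasts and osteocytes summed to 31.2 to 59.3 CPM in WT mice on placebo and 650.4 to 1675 in WT mice on tamoxifen, where 9 of the 10 tested rose. In Dnm2 S619L/+ mice they went from 14.7 to 20.7 CPM on placebo to 359, 766, 1001 and 59.3 on tamoxifen, and the low value was again mouse 4. In Bin1 mck-/- mice on tamoxifen they were 26.7, 484, 19.8 and 20.4 CPM. The high one was mouse 2, which was also the highest of its group for all 8 proteoglycan genes. Osteoclast markers (8 genes) had 7.27 to 12.0 CPM in WT mice on placebo and 264 to 1534 on tamoxifen. The 8 tendon markers summed to 56.0 to 162 CPM in WT mice on placebo, 437 to 975 in WT mice on tamoxifen and 548 to 1658 in Dnm2 S619L/+ mice on placebo, and to 837 to 922 in Dnm2 S619L/+ mice on tamoxifen, where 0 of 8 were called against placebo. Macrophage markers (8 genes) went from 61.2 to 102 CPM to 149.7 to 300.2 with tamoxifen in WT mice, where 6 of 8 were called. With tamoxifen in Dnm2 S619L/+ mice 0 of these 8 were called, where 8.27% of all genes were.

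Some of these markers were also higher in untreated disease. Of all genes, 12.1% were called higher in the Dnm2 model and 1.99% in the Bin1 model. With tamoxifen in Bin1 mck-/- mice 1.61% were called lower. Osteoblast and osteocyte markers were not higher, with 14.7 to 20.7 CPM in untreated Dnm2 S619L/+ mice and 31.2 to 59.3 in WT mice. Of the 10 tested, 1 was called lower. In the Bin1 cohort they summed to 26.8 to 39.4 CPM in untreated disease and 38.5 to 47.8 in WT mice, with 0 called. In untreated Dnm2 S619L/+ mice 4 of the 8 tendon markers were called higher than in WT mice, and 3 of the 8 macrophage markers were, which summed to 78.3 to 242 CPM. In the Bin1 cohort macrophage markers summed to 43.3 to 67.3 CPM in WT mice and 126 to 260.2 in Bin1 mck-/- mice on placebo (3 of 8 called higher), and to 47.7 to 130.3 on tamoxifen. The tendon markers of that cohort went from 80.5 to 156 CPM in WT mice to 193 to 1668 in disease on placebo (1 of 8 called higher), and to 93.5 to 303 on tamoxifen (1 called lower). Their part in the disease comparisons was not tested.

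Fibroblast markers went with tamoxifen in WT mice from 311 to 501 CPM to 409.8 to 539.8. Of these 10, 1 was called, where 27.7% of all genes were. The called gene was Pdgfra, a receptor of connective tissue fibroblasts. In untreated Dnm2 S619L/+ mice fibroblast markers had 349.9 to 594 CPM. Against WT mice 3 of 10 were called higher, where 12.1% of all genes were. In the Bin1 cohort these markers went from 321 to 404 CPM in WT to 579.7 to 800.0 in disease on placebo (2 of 10 called higher). On tamoxifen they had 492, 394, 260.3 and 148 CPM (2 called lower). Mouse 1 was the highest of the treated mice for these markers and mouse 2 for the proteoglycan genes, while mouse 4 was the lowest for both. The part of fibroblast markers in the results was not tested. Scaling factors and mitochondrial reads also differed between groups. TMM factors were 0.812 to 0.8999 in WT mice on placebo of the Dnm2 cohort and 0.963 to 1.16 in its other groups, and mitochondrial genes took 19.6% to 25.7% of reads in the former and 13.6% to 19.0% in the latter.

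**Figure D4:**
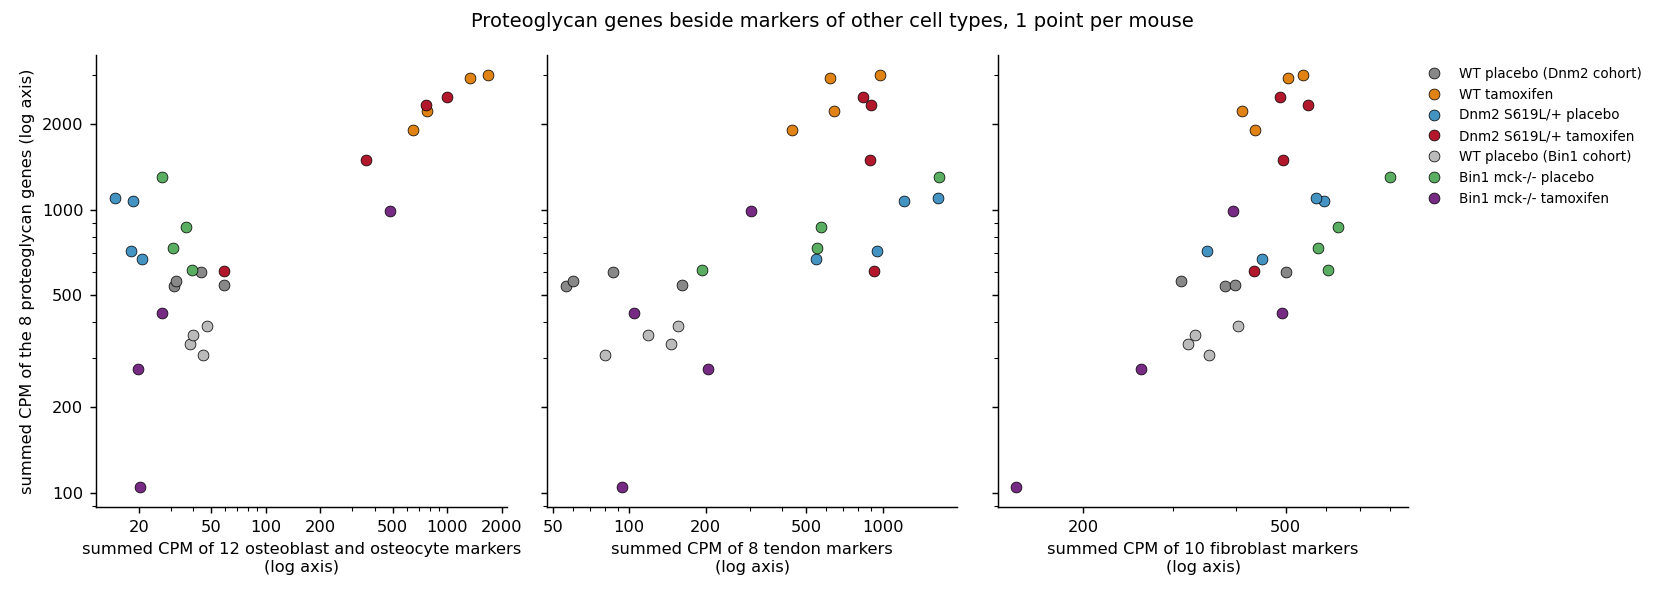
Summed CPM of the 8 proteoglycan genes (y axis, log) against summed CPM of osteoblast and osteocyte, tendon and fibroblast markers (x axes, log), with 1 point a mouse. The mice with 359 CPM or more of bone markers, which are all WT mice on tamoxifen, 3 Dnm2 S619L/+ mice on tamoxifen and Bin1 mck-/- tamoxifen mouse 2, have 992 CPM or more of the proteoglycan genes, as do 2 untreated Dnm2 S619L/+ mice and 1 untreated Bin1 mck-/- mouse that lack these markers' high levels.

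Over the 28 mice, with each cohort centred on its placebo WT mean, the family moved as a block apart from Podn. Pearson's r of log2 CPM was 0.96 for Lum and Aspn, 0.95 for Bgn and Ogn and 0.94 for Ogn and Aspn, and 0.61 for Dcn and Omd, the lowest pair without Podn. Podn had r between −0.15 (Omd) and 0.50 (Dcn). Within groups, with each group centred on its own mean, r was 0.51 to 0.82 for Podn and the other genes. Pairs without Podn had 0.63 to 0.95 there, so Podn stood less apart within groups than over all mice. Among 14564 genes, those most like Lum were Igsf10 (r = 0.99), Olfml3 (0.98) and Col5a2, a chain of collagen V (0.98). Col5a2 (0.98), Cthrc1 (0.98) and Postn, which encodes periostin (0.97), were most like Aspn. Bgn was closest to Fn1, the fibronectin gene (0.98), Ssc5d (0.97) and Pdgfrl (0.97), and Ogn to Pdgfrl (0.98), Fn1 (0.96) and Col3a1 (0.95). Omd was closest to Ptk7 (0.97), Cpxm1 (0.96) and Zfp469 (0.96), and Dcn to Bmp5 (0.94), Serping1 (0.94) and Itih2 (0.93). For Prelp these were Angptl1, Plat and Rgl1 (0.90 to 0.91), and for Podn Ace, Abca6 and Abca8a (0.86 to 0.87). The mice share groups and libraries, so these values only describe likeness over these samples.

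The 10 other genes of the family were mostly low in this muscle. In WT mice on tamoxifen, 3 of the 7 tested rose and 0 fell, where 15.8% of all genes rose and 11.9% fell. Fmod, which encodes the collagen-binding fibromodulin, rose from 39.5 ± 59.4 CPM (SD, n = 4; range 1.08 to 128) to 611 ± 193 (log2 fold change 3.94, SE 1.13, edgeR adjusted p = 0.0190). Tsku (2.30, SE 0.37, edgeR adjusted p = 6.16e-04) and Podnl1 (6.85, SE 0.96, adjusted p = 3.39e-04) rose from 1.90 ± 0.258 to 9.49 ± 4.38 CPM and from 0.0690 ± 0.0696 to 16.5 ± 6.02 CPM. Podnl1 is the closest relative of Podn, which had a log2 fold change of −0.51 that did not pass. In Dnm2 S619L/+ mice tamoxifen raised Podnl1 (5.43, edgeR adjusted p = 0.00394) and Tsku (1.32, adjusted p = 0.0360). Kera, Chad and Ecm2 passed in none of the comparisons by edgeR, with Ecm2 at 0.51 (adjusted p = 0.0805) under tamoxifen in WT mice, Kera at 0.83 and Chad at 1.80. Chadl was tested in the Dnm2 cohort and was not called, and Epyc, Optc and Nyx stayed below the filter there. In the Bin1 cohort, 0 of the 6 tested were called in any comparison.

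Genes that build the sugar chains rose with tamoxifen in part. Of the 20 tested genes of chondroitin and dermatan sulfate synthesis, 10 rose and 1 fell in WT mice on tamoxifen (median log2 fold change 0.77). Of all genes, 15.8% rose and 11.9% fell in this comparison. Dse, which turns chondroitin into dermatan sulfate, went from 3.33 ± 0.889 to 16.5 ± 2.57 CPM (2.26, SE 0.34, edgeR adjusted p = 4.37e-04). The chain-building enzyme Chsy3 (3.31, adjusted p = 7.01e-04) and the sulfotransferase Chst12 (2.04, adjusted p = 7.65e-04) were the next by p. The gene that fell was Fam20b (−0.61, adjusted p = 0.00118), a kinase of the linker that carries the chain, named here after its value was seen. In Dnm2 S619L/+ mice, 6 rose with tamoxifen and 0 fell, where 5.22% of all genes rose and 3.05% fell. Chsy3 led (2.51, edgeR adjusted p = 0.0128). Untreated disease mice of this cohort had 3 genes higher and 4 lower than WT, where 12.1% of all genes were higher and 9.81% lower. Those with the smallest p, Fam20b (−0.49), Xylt1 (−1.02) and Csgalnact1 (−0.97), were lower, as was Chst3. B3gat3, Chpf2 and B3galt6 were higher, these and Chst3 being named after their values were seen. Of 7 tested genes of keratan sulfate synthesis, 3 rose (Chst2, 2.53, B4galt1, 0.92, and St3gal1, 0.56, the last named after its value was seen) and St3gal3 fell (−0.39) with tamoxifen in WT mice. In the Bin1 cohort 0 genes of either list were called.

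The partners of these proteoglycans moved in the same samples. Among all genes, tamoxifen raised 15.8% in WT mice and 5.22% in Dnm2 S619L/+ mice, and lowered 1.61% in Bin1 mck-/- mice. All 11 collagen genes rose with tamoxifen in WT mice (median log2 fold change 3.41), led by p by Col14a1 (1.79, edgeR adjusted p = 1.69e-04), Col3a1 (3.59) and Col1a2 (4.41). In Dnm2 S619L/+ mice 8 of 11 rose (median 2.24). In untreated Dnm2 S619L/+ mice 0 were called, where 21.9% of all genes were. They summed to 2382 to 3031 CPM there and to 1124 to 1850 in WT mice. In the Bin1 cohort 0 were called in any comparison, where 2.61% of all genes were in untreated disease and 3.13% with tamoxifen. Untreated Bin1 mck-/- mice had a sum of 2505 to 6676 CPM, against 1278 to 1701 in WT mice. Of 9 tested proteases that cut these proteoglycans, 8 rose in WT mice on tamoxifen, with Mmp13 (10.42, SE 1.18, edgeR adjusted p = 1.77e-04), Mmp14 (4.94) and Htra1 (3.03) first. Mmp13, a collagenase of bone and cartilage, went from 0.478 ± 0.424 to 874 ± 308 CPM. In Dnm2 S619L/+ mice 7 rose, with Mmp13 at 10.09, and in Bin1 mck-/- mice 0 rose and Adamts5 fell with tamoxifen (−0.72, edgeR adjusted p = 0.0466).

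Receptors that bind free proteoglycans changed with disease as well. Among all genes, 12.1% were called higher in untreated Dnm2 S619L/+ mice and 1.99% in untreated Bin1 mck-/- mice. Tamoxifen raised 15.8% of them in WT mice and 5.22% in Dnm2 S619L/+ mice. In untreated Dnm2 S619L/+ mice 4 of 11 tested were higher than in WT, with Tlr2 (2.36, edgeR adjusted p = 4.21e-05), Tlr4 (1.59, adjusted p = 8.24e-04) and Itgb1 (0.51, adjusted p = 0.00890) first and Cd44 (1.25), named after its value was seen, as the fourth. Tlr2, a receptor of innate immunity, was also higher in Bin1 mck-/- mice on placebo (1.96, SE 0.45, edgeR adjusted p = 0.0345). Bgn, one of its ligands, had higher means in both models too but was not called by edgeR. Its log2 fold changes were 0.84 in the Dnm2 model (edgeR adjusted p = 0.0943) and 1.78 in the Bin1 model (edgeR adjusted p = 0.131). With tamoxifen 8 receptors rose and Met (−0.75, named after its value was seen) fell in WT mice, and the smallest p were those of Lrp1 (2.25), an endocytic receptor of decorin, Egfr (1.38) and Tlr2 (1.32), and in Dnm2 S619L/+ mice only Lrp1 passed (1.72, adjusted p = 0.0123). The interaction was called for Tlr2 (−1.97, SE 0.36, edgeR adjusted p = 0.0413). Of 7 genes, the TGF-beta family ligands with Ccn2, 4 rose with tamoxifen in WT mice, Tgfb3 (0.99), Tgfb2 (1.14), Tgfb1 (1.58) and Ccn2 (1.65). In untreated Dnm2 S619L/+ mice 2 of these 7 genes were called higher and 2 lower, and in untreated Bin1 mck-/- mice 1 higher and 1 lower. Of all genes, 9.81% were called lower in the former and 0.627% in the latter. Ccn2, a target of TGF-beta, was higher in disease on placebo in the Dnm2 model (2.13, adjusted p = 0.00349) and the Bin1 model (1.67, adjusted p = 0.0365). Mstn, the myostatin gene, was lower in both (−1.73 and −1.08, adjusted p = 1.54e-04 and 0.0490) and rose with tamoxifen in Bin1 mck-/- mice (1.32, adjusted p = 0.0207).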

How the data were processed

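The 28 TA muscle libraries were analysed as RNA-seq counts. Per the labels, libraries were stranded and made from mRNA captured with poly-T beads. For each cohort the authors deposited 1 table of raw read counts by Ensembl gene, with no normalization. The submitters' processing notes name the mm39 build and bcl2fastq 2.20.0.422, cutadapt 1.10, Bowtie 1.2.2, STAR 2.5.3 and HTSeq 0.6.1p1, with no role or order. In the Bin1 table, 4 lines that name no gene (22.0% to 30.8% of counts, median 23.9%) were left out. Symbols came from GENCODE M21, which named 52083 genes of each table. Exon lengths came from the same annotation, which is of another build than the counts. They pool the exons of all annotated transcripts of a gene and can exceed the length of the expressed transcript. RefSeq promoters (GRCm38.p6) were searched for motifs, and 7 promoters of 6 genes were found.

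Groups and mouse numbers came from the labels. The members, the gene lists and the rule for named genes were chosen with earlier results of these data known. Named are the 8 members, the 10 other genes of the family, the 3 genes most like each member, and up to 3 called genes of a list per comparison by p. The other lists hold genes of sugar chain synthesis, collagens, receptors, TGF-beta ligands, proteases and markers of 13 cell types.

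Counts were tested with edgeR 4.0.16 in R 4.3.3 (TMM scaling, filterByExpr, robust quasi-likelihood test), with 15439 genes in the Dnm2 cohort, 14841 in the Bin1 cohort and 16036 in the joint fit of both. All mice of a cohort entered 1 fit. A prior count of 2 entered the fold changes, and genes were called at a Benjamini-Hochberg adjusted p under 0.05 over all genes. CPM are counts scaled by the TMM-adjusted library size. The labels do not say that the mice of a group were independent, beyond separate samples, so p-values measure the spread between these samples. Mice of a group differed by a chi-square of at least 15.6 per gene, so none was counted as a duplicate.

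Alternatives were DESeq2 1.42.0, RLE scaling, library size alone, omitting the low-count filter or using that of the paper, fitting only the compared groups, a block for the replicate number, and refits without each mouse. Amino acid sequences were not used here.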

Additional observations from a re-analysis of the deposited data

Results flagged for a closer look

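Over the 56 sets of 4 mice (8 genes in 7 groups), 4 had a mouse whose gap to its nearest neighbour was above Dixon's critical share of the group's range, and chance alone flags about 5% of such sets. Bin1 mck-/- tamoxifen mouse 2 had 230.6 CPM of Lum, with the next mouse at 35.8, and 95.8 CPM of Aspn, with the next at 12.2. The same mouse had 484 CPM of osteoblast and osteocyte markers against 19.8 to 26.7 in the other 3, and the part of these markers in the result was not tested. Dnm2 S619L/+ placebo mouse 1 had 2.07 CPM of Omd, with 1.30 in the next mouse. WT placebo mouse 4 of the Dnm2 cohort had 15.2 CPM of Podn, with 19.6 in the next mouse. No difference between groups in the effect of tamoxifen or of disease passed the edgeR test for any of the 8 genes.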

How the results depend on the processing

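Of 2059 refits of the 88 fold changes of the 8 genes, 1953 kept direction and side of the threshold, 30 lost and 53 gained a call, and 23 changed sign, none of which was called in the refit. The genes called with tamoxifen in WT mice were 7 in the main analysis and 6 to 8 over the fits without 1 mouse, and those in treated Dnm2 S619L/+ against WT mice were 6 and 5 to 6. Other counts moved more. For untreated Dnm2 S619L/+ mice, the count of 0 became 2 with DESeq2, 3 with library size alone, 4 with only the groups compared, 1 with the replicate number as a block, and 0 to 4 without 1 mouse (4 without tamoxifen mouse 4, 1 without placebo mouse 3 or 4). For tamoxifen in Dnm2 S619L/+ mice, 4 became 0 with only the groups compared, and 3 to 6 without 1 mouse. For untreated Bin1 mck-/- mice, 0 became 2 with DESeq2, 6 with only the groups compared and 0 to 2 without 1 mouse. For tamoxifen in Bin1 mck-/- mice the range was 0 to 4, with 4 without mouse 2. For the difference of tamoxifen effects between models, 0 became 3 with DESeq2, 1 with the paper's filter and 0 to 7 without 1 mouse (7 without Bin1 mck-/- tamoxifen mouse 2, 4 without Dnm2 S619L/+ tamoxifen mouse 4, 1 without Bin1 mck-/- placebo mouse 3). The cause of these changes was not tested.

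Library size alone moved the median of all genes by up to 0.354 (log2) in the Dnm2 cohort. With it Podn turned to 0.066 in untreated Dnm2 S619L/+ mice, to 0.017 with tamoxifen in them and to 0.083 in treated mice against WT, and Prelp to 0.053 in the untreated mice. Fits without 1 mouse changed the sign of fold changes that were not called. In untreated Dnm2 S619L/+ mice Podn ranged from −0.50 to 0.061 and Prelp from −0.38 to 0.054. With tamoxifen in them Podn ranged from −0.34 to 0.22 and Dcn from −0.011 to 0.35. With tamoxifen in Bin1 mck-/- mice Aspn ranged from −2.16 to 0.037 and Lum from −1.85 to 0.36. In treated Bin1 mck-/- against WT mice the ranges were −0.31 to 0.45 for Dcn, −0.30 to 1.83 for Aspn, −0.51 to 0.54 for Bgn, −0.37 to 1.85 for Lum, −0.44 to 0.13 for Podn and −0.45 to 0.077 for Prelp. Omd in the difference of disease effects ranged from −0.086 to 0.65.

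Mice with the same number in the labels did not deviate together. Of 28 pairs, 10 had a correlation over 0.1 (−0.325 to 0.335), and a mouse correlated best with its own number in 15 of 48 cases, so the numbers were not taken as pairs. The replicate block called 1 gene (Dcn) in untreated Dnm2 S619L/+ mice and lost Ogn with tamoxifen in Dnm2 S619L/+ mice (adjusted p = 0.0510), which left 3 genes called, and otherwise left the counts of the Dnm2 cohort within 1.5 times. No paired analysis was possible for WT against Bin1 mck-/- mice because their numbers differ. With 4 mice a group, low counts limit Omd most, with as few as 3 reads in a mouse of the Bin1 cohort.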

Other observations

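The 8 marrow and neutrophil markers summed to 0.140 to 6.73 CPM in every mouse but Bin1 mck-/- tamoxifen mouse 4 (13.05 CPM), and Elane was at 0 in every mouse of 5 of the 7 groups. Cartilage markers (10 genes) summed to 8.29 to 14.1 CPM in WT mice on placebo and 37.0 to 75.2 on tamoxifen. Of 8 tested 4 rose, where 15.8% of all genes did, and Matn1 was at 0 in all mice of both groups. Of 7 endothelial markers, 4 were lower in untreated Dnm2 S619L/+ mice, where 9.81% of all genes were lower and 12.1% higher. Of 7 smooth muscle and pericyte markers 4 were lower and 2 higher there. With tamoxifen in WT mice 0 of either list were called, where 27.7% of all genes were. Adipocyte markers had 2 of 5 tested genes higher in untreated Bin1 mck-/- mice and 1 lower with tamoxifen, where 1.99% and 1.61% of all genes were. Of 6 Schwann cell markers, 3 were lower with tamoxifen in Bin1 mck-/- mice. Of 5 erythroid markers, 1 was lower in untreated Dnm2 S619L/+ mice, and 0 were called with tamoxifen in any group. Muscle fibre markers (10 genes) had 2 called lower in untreated Dnm2 S619L/+ mice and 1 with tamoxifen in WT mice. In treated Dnm2 S619L/+ mice 5 were lower than in WT mice on placebo. For all genes the shares called lower were 9.81%, 11.9% and 13.1%.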
